A study of Mus musculus with 35 samples.

Results

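The genes considered here carry iron into the cell, store it, release it from store and sense it. They are 7 listed genes, Tfrc, Slc11a2, Fth1, Ftl1, Ncoa4, Aco1 and Ireb2, out of the 48709 genes counted. They were chosen by name with no measured value in the rule, but with earlier results of these data known. All 7 were found under 1 Ensembl identifier each and all 7 passed the filter on low counts, which left 13819 genes for testing. RNA was sequenced from OT-I CTLs, CD8+ T cells of mice carrying a transgenic T-cell receptor for an ovalbumin peptide, which had been activated and expanded in IL-2 before the experiment, so every group, the start of culture included, had seen IL-2. One group was sampled at 0 h, and 6 were sampled 24 h later, after culture in medium of pH 7.4, 7 or 6.6 with mouse IL-2 (200 IU/mL) or with none, each group holding 5 biological replicates for a total of 35 libraries. The labels name no gene deletion or knockdown, dead cells were removed on Ficoll before RNA extraction, and the age of the mice is not given in the sources used here. The same transgenic receptor and the same activated state were shared by all groups, which limits them to 1 clonotype of cultured effector cells.

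Cells take up iron mainly as iron-loaded transferrin, which binds transferrin receptor 1 (Tfrc) and is carried into acidic endosomes, where iron is released and moved to the cytosol by the divalent metal transporter (Slc11a2). Iron that is not used is kept inside ferritin, a shell of heavy (Fth1) and light (Ftl1) chains, and ferritin is handed to the lysosome by the cargo receptor Ncoa4. In iron-poor cells the iron regulatory proteins IRP1 (Aco1) and IRP2 (Ireb2) bind a hairpin, the iron responsive element, in the mRNAs of these genes: bound at the start of ferritin mRNA they block its translation, and bound at the end of Tfrc mRNA they protect it from decay. With iron at hand IRP1 takes up an iron-sulfur cluster and becomes the cytosolic aconitase, and IRP2 is degraded. Dividing T cells are known for high surface transferrin receptor.

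The hairpins are shown because they set apart the members that can be read by the iron regulatory proteins from those that do not hold such a site. GENCODE M21 transcripts (GRCm38) were searched on the transcribed strand for C, any 5 bases, CAGTGN, and 5 bases that pair with the first 5, with G-T pairs allowed, and then for the same hairpin with 1 unpaired base in its 3′ arm. The loop is in capitals, sequences run 5′ to 3′, and letters are DNA.
Tfrc hairpin 1: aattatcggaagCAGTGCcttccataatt
Tfrc hairpin 2: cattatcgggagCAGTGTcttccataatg
Tfrc hairpin 3: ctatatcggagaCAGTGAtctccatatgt
Tfrc hairpin 4: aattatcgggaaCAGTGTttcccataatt
Slc11a2 hairpin 1: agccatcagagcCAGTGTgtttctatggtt
Fth1 hairpin 1: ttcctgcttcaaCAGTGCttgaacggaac
Ftl1 hairpin 1: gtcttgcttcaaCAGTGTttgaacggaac
The 4 hairpins of Tfrc lay in the 3′ UTR of 1 of its 3 coding transcripts, Tfrc-201, on the plus strand at chr16:32631219-32631247, chr16:32631598-32631626, chr16:32631663-32631691 and chr16:32631710-32631738. Slc11a2 held the hairpin with an unpaired base in the 3′ UTR of 1 of its 6 coding transcripts, Slc11a2-205, on the minus strand at chr15:100395152-100395181. The ferritin chains held theirs in the 5′ UTR, Fth1 on the plus strand at chr19:9982732-9982760 in 4 of 5 coding transcripts and Ftl1 on the minus strand at chr7:45459779-45459807 in 1 of 2. Fth1 and Ftl1 thus carry the element ahead of the coding sequence, and Tfrc and Slc11a2 behind it. No match was found in Ncoa4, Aco1 or Ireb2, which says only that these letters are not in their annotated transcripts. A hairpin of another form would be missed in any member, so the numbers found in Tfrc and the others need not be complete. Among 11864 coding genes tested, 1.72% held the fully paired hairpin anywhere in a transcript, 0.202% in the 5′ UTR and 0.809% in the 3′ UTR, and 1.36% held the form with 1 unpaired base in the 3′ UTR. The counts are per gene, so transcripts with and without the hairpin were not separated for any of these 4 genes, and the levels below are of mRNA, on which translation and protein decay leave no mark.

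Each library held between 16721319 and 34033340 reads on genes (median 24730020), and each member's level was given as CPM, its count scaled to the library's size with TMM factors. A rise or fall in these levels is thus relative to the other mRNAs of the library, and amounts per cell were not measured. Behind these levels were between 909 and 34787 reads of Tfrc per library, 9878 to 23505 of Fth1, 2410 to 7510 of Ireb2, 1421 to 4845 of Ftl1, 810 to 2179 of Slc11a2, 498 to 1897 of Aco1 and 177 to 396 of Ncoa4. Reads that could be placed in several positions were left out of the counts. Their entry made up 32.8% to 48.3% of everything counted in a library's deposited table. Whether such a read was entered only once was not checked, and other shares of reads given below use the same total. Of all 50-base windows of each gene's transcripts, 41.6% of Ftl1 and 82.1% of Ncoa4 were found in no other gene, against at least 95.7% for the other 5 members. The remaining windows of Ftl1 were shared with 17 other genes, most often with Ftl1-ps1 (47.3% of all its windows), and those of Ncoa4 with Gm6768. Part of the Ftl1 exons also overlapped Gm10252 on the other strand. The levels of Ftl1 and, to a lesser degree, Ncoa4 are therefore uncertain. The labelled cell type was checked first: the summed level of 8 cytotoxic CD8 T-cell markers was between 2958 and 14060 CPM in every library, while B-cell, erythroid and myeloid markers summed to at most 0.381, 2.07 and 3.35 CPM and Cd4 was at most 2.48 CPM. Macrophages and red cell precursors, which handle much of the body's iron, were thus visible at most as traces. Of 2 NK-cell markers, Ncr1 had at most 2 reads in any library, whereas Klrb1c was at 88.95 ± 4.94 CPM at 0 h and moved with the conditions. It was at 44.2 ± 1.13 CPM at pH 7.4 and 25.8 ± 6.41 CPM at pH 6.6 with IL-2 (log2 fold change -0.78, SE 0.13), and at 31.8 ± 7.25 and 10.4 ± 1.60 CPM without it (-1.62, SE 0.14). Its part in the results below was not tested.

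Tfrc had by far the widest range of the 7 genes. In the presence of IL-2 its level was 901, 1208, 1102, 915 and 897 CPM in replicates 1 to 5 of the pH 7.4 group, 497, 522, 475, 498 and 575 CPM in the pH 7 group, and in the pH 6.6 group 130, 94.99, 101, 112 and 119 CPM. The 3 groups were fully separated, each step down in pH lying below every library of the step before. Without IL-2 the levels were 48.0, 52.2, 67.0, 48.4 and 43.1 CPM at pH 7.4, then 60.3, 44.96, 51.9, 41.3 and 39.9 CPM at pH 7, and 51.1, 58.8, 58.8, 37.2 and 56.7 CPM at pH 6.6. These 3 groups overlapped throughout. Cells at 0 h had 357, 258, 299, 300 and 216 CPM, between the IL-2 groups of pH 7 and pH 6.6 and overlapping neither.

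**Figure D1:**
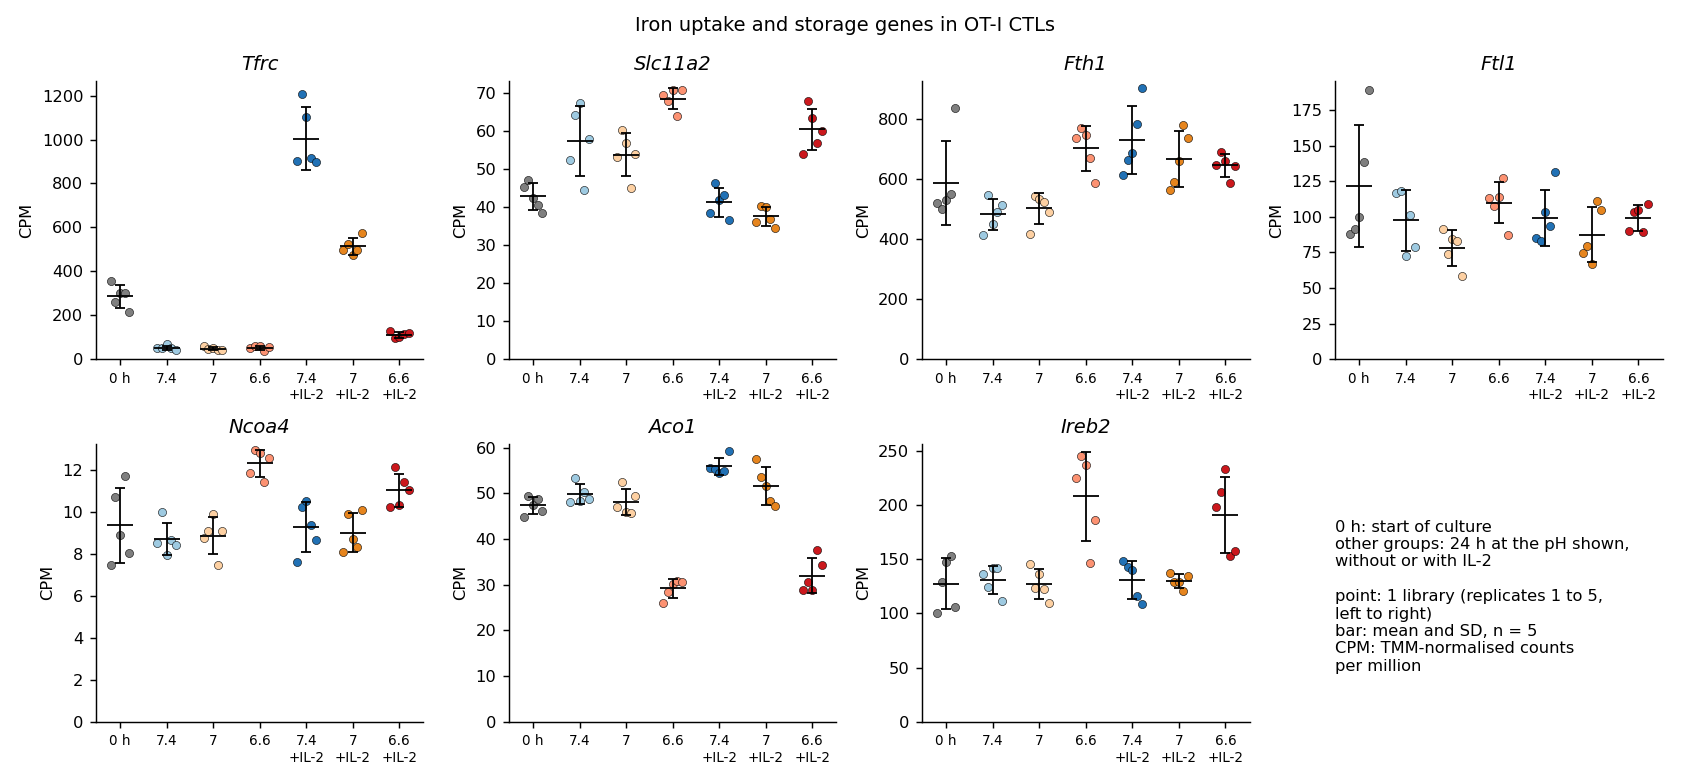
Normalised level (CPM, vertical axis from 0) of the 7 genes in the 7 groups (horizontal axis), 1 point per library and a bar for mean and SD, n = 5. Tfrc runs from a group mean of 47.7 CPM at pH 7 without IL-2 to 1005 CPM at pH 7.4 with IL-2, Aco1 is lowest and Ireb2 highest in both pH 6.6 groups, and the Fth1 and Ftl1 groups overlap with most others.

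With IL-2, Tfrc fell 9.03-fold from pH 7.4 to pH 6.6, from 1005 ± 142 to 111 ± 14 CPM (mean ± SD, n = 5 each). The log2 fold change was -3.17 (SE 0.14, 95% interval -3.44 to -2.90, adjusted p = 1.17e-19), and 1.87% of tested genes changed by as much or more. At pH 7 the fall was 1.957-fold, a log2 fold change of -0.96 (SE 0.13, adjusted p = 3.23e-06), matched by 2.92% of genes. All 5 replicates fell in both comparisons. Without IL-2 no change was called from pH 7.4 to pH 6.6, with a log2 fold change of 0.02 and an interval from -0.23 to 0.27 (adjusted p = 0.883), nor between pH 7 and pH 7.4, where it was -0.12 (interval -0.37 to 0.13). The difference between the pH effects with and without IL-2, tested as an interaction, was -3.19 on the log2 scale at pH 6.6 (SE 0.18, adjusted p = 4.21e-16) and -0.84 at pH 7 (SE 0.18, adjusted p = 0.00628). The second of these was lost without replicate 2, at -0.79 and an adjusted p of 0.0592.

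Seen from the side of the cytokine, IL-2 raised Tfrc 19.4-fold at pH 7.4, 10.8-fold at pH 7 and 2.12-fold at pH 6.6. The log2 fold changes were 4.28 (SE 0.14), 3.44 (SE 0.14) and 1.09 (SE 0.13), each with all 5 replicates higher and no overlap of the groups, and with adjusted p-values of 6.26e-23, 9.35e-21 and 9.02e-08. Against the 0 h cells, Tfrc rose 3.51-fold in 24 h at pH 7.4 with IL-2 and fell 2.57-fold at pH 6.6 with IL-2, while without IL-2 it fell 5.52-fold at pH 7.4 and 5.44-fold at pH 6.6. Ordered by level, the groups ran from pH 7.4 with IL-2 through pH 7 with IL-2, 0 h and pH 6.6 with IL-2 to the 3 groups without IL-2. Every neighbouring pair in this order differed past the threshold except those among the 3 groups without IL-2. A set of 6 markers of dividing cells, Mki67, Top2a, Mcm5, Ccnb1, Cdk1 and Pcna, moved beside it in part: their summed level was 4260 to 5214 CPM at pH 7.4, 3587 to 4794 CPM at pH 7 and 1141 to 1650 CPM at pH 6.6 with IL-2, and 243 to 353, 325 to 642 and 801 to 1512 CPM without it. Without IL-2 the markers of dividing cells were thus higher in every pH 6.6 library than in any pH 7.4 library, while the Tfrc groups overlapped. Their part in the Tfrc result was not tested, and in bulk RNA fewer cells with a transcript and less of it per cell cannot be told apart.

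Slc11a2, the exporter of iron from the endosome, had a smaller range than Tfrc. It moved in the other direction from Tfrc at pH 6.6 with IL-2 and under IL-2 at pH 7.4 and pH 7, but not in every comparison. With IL-2 it was at 38.5, 46.3, 42.0, 43.3 and 36.6 CPM at pH 7.4 and at 54.1, 68.0, 63.5, 56.9 and 60.0 CPM at pH 6.6. Every acidic library lay above every library at pH 7.4. The gene rose 1.47-fold, with a log2 fold change of 0.55 (SE 0.07, interval 0.40 to 0.69, adjusted p = 5.55e-08). As large a change or a larger one was seen in 59.2% of tested genes. Without IL-2 it was at 52.6, 64.3, 67.5, 44.6 and 58.0 CPM at pH 7.4 and at 69.5, 68.0, 70.8, 64.2 and 70.8 CPM at pH 6.6, overlapping, with a rise of 0.27 on the log2 scale (SE 0.07, adjusted p = 0.00186). The rise with IL-2 exceeded that without IL-2 by 0.28 (SE 0.10, adjusted p = 0.0186). This difference was lost without replicate 2 (0.23, adjusted p = 0.111) and without replicate 5 (0.25, adjusted p = 0.0643).

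IL-2 lowered Slc11a2 at pH 7.4, by a log2 fold change of -0.47 (SE 0.07, adjusted p = 9.55e-07), and at pH 7, by -0.52 (SE 0.07, adjusted p = 1.66e-07). At pH 6.6 the value was -0.19 (interval -0.33 to -0.04) and did not pass the threshold (adjusted p = 0.0628). No change was called between pH 7 and pH 7.4, either with IL-2 (-0.14, interval -0.28 to 0.01) or without (-0.09, interval -0.23 to 0.06). In the order of levels the only neighbours that differed were pH 7 without IL-2 and 0 h, which set the 4 higher groups, pH 6.6 without and with IL-2, pH 7.4 and pH 7 without IL-2, above 0 h, pH 7.4 with IL-2 and pH 7 with IL-2.

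Fth1, the ferritin chain that oxidises iron for storage, had the highest counted level per length of all members in 34 of the 35 libraries. Ncoa4 had the lowest in all 35. The length is the union of a gene's exons, and multiply placed reads are not in the counts. Since 41.6% of the Ftl1 windows were found in no other gene, against 98.4% for Fth1, the rank of Fth1 above Ftl1 is uncertain. Without IL-2, Fth1 was at 412, 547, 448, 488 and 511 CPM at pH 7.4 and at 736, 768, 746, 667 and 587 CPM at pH 6.6. No library of one group reached the other, and the rise was 1.46-fold, a log2 fold change of 0.55 (SE 0.11, interval 0.34 to 0.77, adjusted p = 5.48e-05). With IL-2 it was at 614, 662, 684, 783 and 901 CPM at pH 7.4 and at 644, 690, 659, 587 and 644 CPM at pH 6.6. These groups overlapped, 3 of 5 replicates shared the sign of the fitted value, and no change was called (-0.17, interval -0.38 to 0.05, adjusted p = 0.173). The difference between both pH effects was -0.72 (SE 0.16, adjusted p = 1.54e-04) and had the same sign in all 5 replicates.

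IL-2 raised Fth1 1.51-fold at pH 7.4 (log2 fold change 0.59, SE 0.11, adjusted p = 1.28e-05) and 1.33-fold at pH 7 (0.40, SE 0.11, adjusted p = 0.00142). At pH 6.6 the value was -0.13 (interval -0.34 to 0.09). The mean levels were thus 481 ± 52.7 CPM at pH 7.4 and 501 ± 52.4 CPM at pH 7 without IL-2, and between 645 and 729 CPM in the other 4 groups of 24 h. Changes of Fth1 against 0 h rested partly on 1 library, replicate 5 of 0 h, which held 835 CPM where the other 4 held 499 to 548 CPM. Of all libraries it also had the largest share of multiply placed reads (48.3%) and the smallest share of reads outside genes (2.58%). At pH 6.6 with IL-2 the value against 0 h was 0.15 and not called (adjusted p = 0.227), and without replicate 5 it was 0.30 and called (adjusted p = 0.00635). The fall at pH 7.4 without IL-2 of -0.28 (adjusted p = 0.0246) became -0.15 (adjusted p = 0.153) without replicate 5. That call was also lost without replicate 1 or 3 (adjusted p = 0.0663 and 0.119), with the stricter filter (0.0514) and with only the groups compared in the fit (0.0806). The rise at pH 6.6 without IL-2 of 0.28 (adjusted p = 0.0242) was lost without replicate 1, 2, 3 or 4, at values of 0.20 to 0.28 with adjusted p-values of 0.0552 to 0.159, and with only the groups compared (0.0807), and the rise at pH 7.4 with IL-2 of 0.32 (adjusted p = 0.0141) without replicate 3 or 4. No 2 neighbours in the order of the Fth1 levels differed.

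Ftl1, the chain that helps iron to form its mineral core, did not pass the threshold in any of the 13 comparisons, but did between 3 further pairs of groups, each with pH 7 on one side. Its group means ran from 78.4 ± 12.7 CPM at pH 7 without IL-2 to 122 ± 42.9 CPM at 0 h, a log2 fold change of -0.60 (SE 0.18, adjusted p = 0.00336; 75.4% of all genes called). Ftl1 was also lower at pH 7 with IL-2 than at 0 h (-0.465, SE 0.18, adjusted p = 0.0273; 54.3% of all genes called). Without IL-2 its level at pH 6.6 exceeded that of the pH 7 group (0.48, SE 0.18, adjusted p = 0.0174; 66.6% of all genes called). The first of these calls was lost without replicate 5 (-0.31, adjusted p = 0.0507), the second without replicate 3 or 5 (adjusted p = 0.0599 and 0.0557) and the third without replicate 4 (0.45, adjusted p = 0.0664). The fitted value for pH 6.6 against pH 7.4 was 0.01 with IL-2 (interval -0.34 to 0.36) and 0.17 without (interval -0.17 to 0.52). The second interval reaches close to the rise of Fth1 in the same comparison, so that a change of that size was barely left out. A fall against 0 h at pH 7.4 without IL-2, at -0.29 (adjusted p = 0.141), passed the threshold only without replicate 1 or 2 (-0.46 in each, adjusted p = 0.0373 and 0.0463). The libraries of replicate 4 and 5 at 0 h, at 139 and 189 CPM, stood above the other 3 of that group, the lowest of which was at 88.0 CPM.

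Ncoa4, which delivers ferritin for breakdown, was the least abundant member and had its highest group means at pH 6.6. Without IL-2 it was at 8.53, 9.97, 7.92, 8.68 and 8.43 CPM at pH 7.4 and at 11.9, 12.9, 12.8, 11.4 and 12.5 CPM at pH 6.6, with no overlap. It rose 1.41-fold, with a log2 fold change of 0.50 (SE 0.10, interval 0.31 to 0.69, adjusted p = 4.85e-05). With IL-2 it was at 7.58, 10.2, 10.5, 9.35 and 8.67 CPM at pH 7.4 and at 10.2, 12.1, 10.3, 11.4 and 11.04 CPM at pH 6.6. The groups overlapped and the log2 fold change was 0.25 (SE 0.10, adjusted p = 0.0223). This call was lost without replicate 1, 2 or 5, at values between 0.21 and 0.26 and adjusted p-values of 0.066 to 0.086. The difference between both rises was not past the threshold (-0.25, interval -0.52 to 0.03). IL-2 itself gave no called change of Ncoa4 at any pH.

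Aco1 and Ireb2, the pair of iron regulatory proteins, moved apart at pH 6.6 both with and without IL-2. Aco1 was at 55.6, 55.2, 54.6, 54.8 and 59.2 CPM in the pH 7.4 group cultured with IL-2, and its acidified counterpart at pH 6.6 held 28.8, 30.6, 28.7, 37.7 and 34.3 CPM. Without IL-2 it was at 48.2, 53.4, 48.4, 50.2 and 48.8 CPM at pH 7.4 and at 26, 28.4, 30.1, 30.7 and 30.7 CPM at pH 6.6. No library at pH 6.6 reached any library of the other 5 groups. The fall was 1.75-fold with IL-2 (log2 fold change -0.81, SE 0.07, adjusted p = 6.06e-12) and 1.71-fold without (-0.77, SE 0.07, adjusted p = 4.90e-11). The difference between both falls was -0.03, with an interval from -0.23 to 0.16.

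At pH 7 no change of Aco1 was called, with values of -0.11 (interval -0.25 to 0.03) with IL-2 and -0.05 (interval -0.19 to 0.09) without. IL-2 raised Aco1 at pH 7.4 by 0.17 on the log2 scale (SE 0.07, adjusted p = 0.0303), with no overlap of the groups, and this call was lost without replicate 1, 3 or 5 (adjusted p = 0.0592 to 0.261). Against 0 h, where the 5 libraries held 44.7 to 49.5 CPM, Aco1 fell by 0.57 at pH 6.6 with IL-2 (adjusted p = 2.41e-08) and by 0.70 without (adjusted p = 1.76e-10).

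Ireb2 was at 148, 142, 140, 116 and 109 CPM in the pH 7.4 group cultured with IL-2, and its pH 6.6 counterpart held 198, 212, 233, 153 and 157 CPM. Without IL-2 it was at 136, 124, 141, 142 and 111 CPM at pH 7.4 and at 224, 245, 237, 146 and 186 CPM at pH 6.6. Both acidic groups lay above their counterparts, without IL-2 by a margin of few CPM in replicate 4. Ireb2 rose 1.46-fold with IL-2 (log2 fold change 0.54, SE 0.11, adjusted p = 5.01e-05) and 1.59-fold without (0.66, SE 0.11, adjusted p = 3.74e-06). The difference between both rises was -0.12, with an interval from -0.42 to 0.18. The 5 groups that were not at pH 6.6 had means of 127 to 131 CPM, and no change of Ireb2 was called for IL-2 or for pH 7. In the order of levels only 1 step differed, between pH 6.6 with IL-2 and pH 7.4 without.

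**Figure D2:**
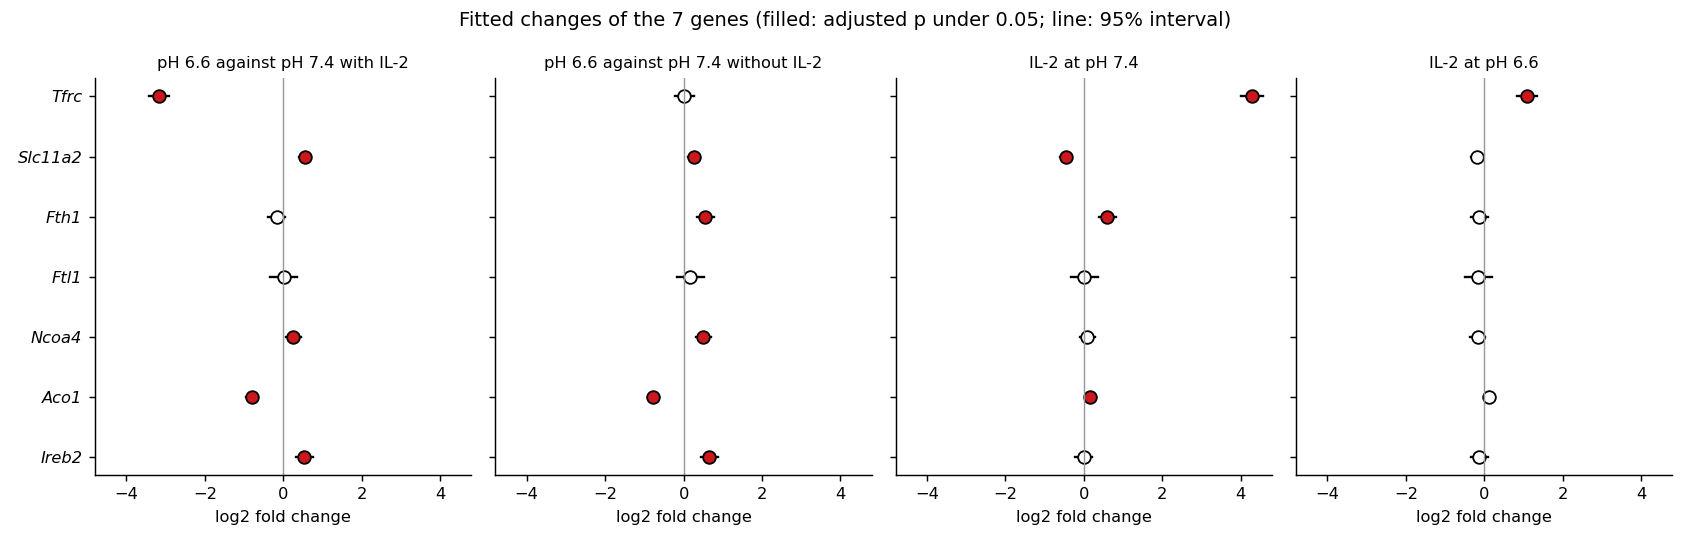
Fitted log2 fold change (horizontal axis) of each gene (vertical axis) for pH 6.6 against pH 7.4 with and without IL-2 and for IL-2 at pH 7.4 and at pH 6.6. Filled points had an adjusted p under 0.05 and lines are 95% intervals; Tfrc stands at -3.17, 0.02, 4.28 and 1.09, while Aco1 stands at -0.81 and -0.77 for pH with and without IL-2.

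Over the members, 5 of 7 were called at pH 6.6 against pH 7.4 with IL-2, Slc11a2, Ncoa4 and Ireb2 higher and Tfrc and Aco1 lower, where 76.3% of all 13819 genes were called, 35.4% higher and 40.9% lower. Without IL-2, 5 of 7 were called, Slc11a2, Fth1, Ncoa4 and Ireb2 higher and Aco1 lower, against 67% of all genes, 31.6% higher and 35.4% lower. Shares of this size are near the background and say nothing of the 7 genes as a group. In size, too, most of these changes were common. With IL-2, 60% of tested genes changed as much as Ireb2, 59.2% as Slc11a2, 44.4% as Aco1 and 80.2% as Ncoa4. Without IL-2 the share was 69% for Slc11a2, 43.2% for Fth1, 47.4% for Ncoa4, 29.9% for Aco1 and 36.1% for Ireb2. Tfrc was the only member called between pH 7 and pH 7.4 with IL-2, where 19% of all genes were called. None was called without IL-2, where the background was 1.68%. In that comparison the edgeR quasi-likelihood test gave 0 members at an unadjusted p under 0.05, and DESeq2 called 0. For IL-2 the counts were 4 of 7 at pH 7.4 (80.4% of all genes), 3 of 7 at pH 7 (77.2%) and 1 of 7 at pH 6.6 (23.7%). The interaction at pH 6.6 was called for Tfrc, Slc11a2 and Fth1 (67% of all genes) and that at pH 7 for Tfrc (4.79%). Against 0 h, 3 members were called at pH 7.4 with IL-2 (59.9% of all genes), 3 at pH 7.4 without (75.2%), 6 at pH 6.6 without (75.1%) and 5 at pH 6.6 with IL-2 (68.5%). The comparisons of each pH with IL-2 share the libraries of pH 7.4 with IL-2, those against 0 h share the 0 h libraries, and so on, so that they are not independent.

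The members were also set against each other inside each library, per kilobase of exon, which removes the scaling between libraries. The level of Ireb2 per kilobase was 0.872 to 1.49 times that of Aco1 in the 25 libraries at 0 h, pH 7.4 and pH 7. At pH 6.6 it was 1.92 to 3.85 times that of Aco1 with IL-2 (median 3.26) and 2.26 to 4.10 times without (median 3.73). No ratio at pH 6.6 overlapped that of any other library. The mean log2 ratio at pH 6.6 exceeded that at pH 7.4 by 1.34 with IL-2 and by 1.42 without, in 5 of 5 replicates each. An exact two-sided permutation of 5 against 5 libraries gave p = 0.00794 for both, the smallest it can give, and an adjusted p of 0.0159 over 14 tests. That test does not use the pairing by replicate number: an exact sign flip within the 5 pairs gave p = 0.0625, which is the smallest that 5 pairs can give, so that no ratio could pass the threshold in the paired test. For pH 7 against pH 7.4 the differences were 0.11 with IL-2 (exact permutation p = 0.381) and 0.01 without (exact permutation p = 0.905), and for IL-2 they were between -0.25 and -0.07 with exact permutation p-values of 0.254 to 0.524. The ratio compares mRNA only, and the iron-bound and active shares of the proteins were not measured.

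The ratio of Tfrc to Fth1, uptake against storage, mostly followed Tfrc between the groups with IL-2 and between cells with and without IL-2. Its median in cells given IL-2 was 0.823, 0.439 and 0.103 at pH 7.4, 7 and 6.6, and in cells without IL-2 it was 0.0556, 0.0464 and 0.0430, with 0.307 at 0 h. The difference in mean log2 ratio from pH 7.4 with IL-2 was -3.01 at pH 6.6 and -0.83 at pH 7, in 5 of 5 replicates (unpaired exact permutation p = 0.00794 and adjusted p = 0.0159, paired p = 0.0625 for both). Without IL-2 the ratio at pH 6.6 was lower than at pH 7.4 in 4 of 5 replicates, and the difference of -0.53 was past the threshold unpaired (exact permutation p = 0.0238, adjusted p = 0.0417) and gave p = 0.125 in the exact paired test. In that comparison Tfrc gave no called change (log2 fold change 0.02), while Fth1 rose by 0.55. With IL-2 the ratio was higher by 3.69, 3.04 and 1.21 at pH 7.4, 7 and 6.6, in 5 of 5 replicates at each pH, with an adjusted p of 0.0159 in the unpaired and p = 0.0625 in the paired exact permutation test.

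**Figure D3:**
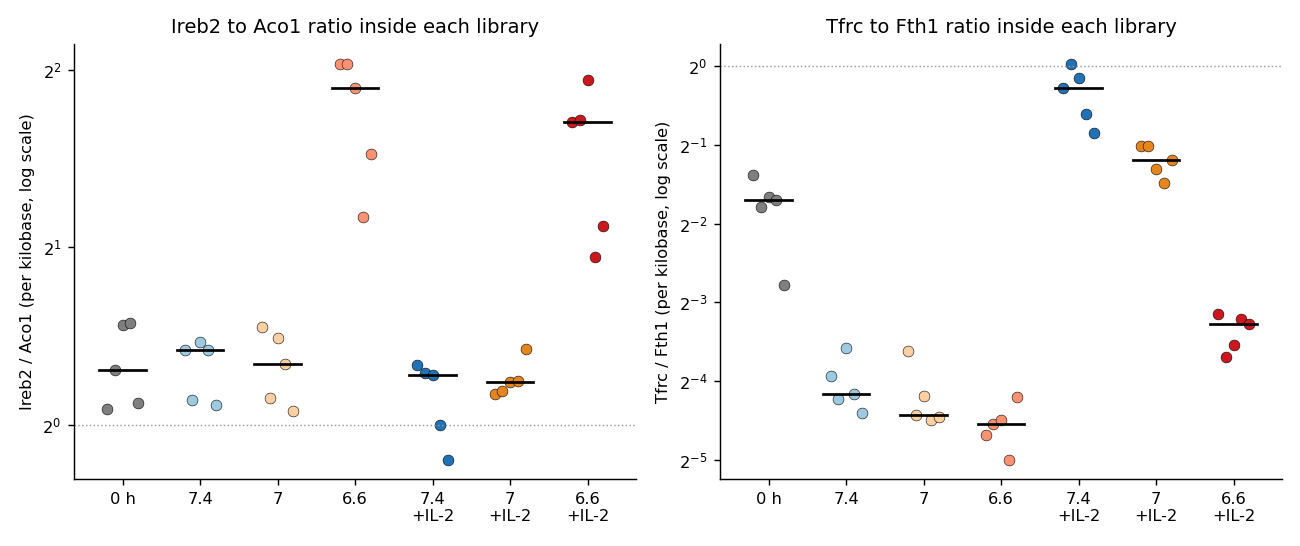
Ratio of Ireb2 to Aco1 and of Tfrc to Fth1 inside each library (vertical axes, CPM per kilobase, log scale) in the 7 groups, 1 point per library and a line at the median of 5. The Ireb2 to Aco1 ratio separates both pH 6.6 groups, with medians of 3.26 and 3.73, from the rest; the Tfrc to Fth1 ratio runs from a median of 0.823 to one of 0.0430.

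Across the 35 libraries, which share group, replicate and scaling, Pearson's r of the log2 levels was -0.77 between Tfrc and Slc11a2 and -0.82 between Aco1 and Ireb2. Fth1 and Ftl1, which build the same particle, had r = 0.47, and Ncoa4 had r = 0.72 with Ireb2 and -0.67 with Aco1. Among 9003 genes whose mean log2 CPM was 3 or more, those most like Tfrc over the same libraries were Sfxn1, a serine carrier of mitochondria (r = 0.985), Ppat, which starts purine synthesis (0.984), and Cyb5b (0.984). For Aco1 they were Spn, Tsnax and Slc35b4 (0.954 to 0.959), for Ireb2 Pkn2, Arih1 and Ccnt1 (0.945 to 0.952), and for Slc11a2 Rnf145, Itpkb and Cog2 (0.934 to 0.945). The ferritin chains had different neighbours, Arpc3, Cox7a2 and Bud13 for Fth1 (0.885 to 0.901) and the ribosomal protein genes Rpl35a, Rps27a and Rpl35 for Ftl1 (0.843 to 0.890). Stam2, Apaf1 and Igf2r were closest to Ncoa4 (0.827 to 0.839). These are descriptions over libraries of 7 groups, and no other member was among any member's 3 nearest genes.

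The wider machinery of iron was read from a list of 100 genes, of which 85 passed the filter. The median log2 fold change of these 85 from pH 7.4 to pH 6.6 with IL-2 was -0.46, against -0.07 over all genes, with 25 higher, 46 lower and 14 not called. Of all genes, as above, 76.3% were called, 35.4% higher and 40.9% lower, and neither the list nor its classes were tested against these shares. Of 24 tested genes of mitochondrial iron and iron-sulfur clusters, 19 fell and 3 rose (median -0.80). Among those that fell were Hspa9, the chaperone that passes clusters on (-1.55, SE 0.07), and the cluster-handling Bola3 (-1.72, SE 0.12). Cisd1, an iron-sulfur protein of the outer membrane (-1.57, SE 0.11), and Sfxn1, the serine carrier named above (-1.68, SE 0.07), fell too. Those that rose were the mitochondrial iron importers Slc25a37 (mitoferrin 1, 1.51, SE 0.10) and Slc25a28 (mitoferrin 2, 1.37, SE 0.09), and Hscb (0.74, SE 0.14).

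Of 19 heme genes, 13 fell and 3 rose (median -0.74). Cpox, an enzyme of heme synthesis, fell by 1.54 on the log2 scale (SE 0.09), and Hmox1, which breaks heme down and frees its iron, had a log2 fold change of -1.13 (SE 0.16) at group means of 7.37 and 3.38 CPM. Ppox, Blvrb and Slc48a1 were the 3 that rose. In cytosolic iron-sulfur assembly 6 of 11 fell, with Ciao2a at -1.302 (SE 0.08), and Mms19 and Ndor1 rose. Among 13 tested genes of import 4 rose and 5 fell, the latter including the transporters Slc39a14 (-1.29, SE 0.08) and Slc39a8 (-1.29, SE 0.07). The others were Steap3, which reduces iron in the endosome (-1.31, SE 0.16), Slc46a1 and Snx3, and those that rose were Cybrd1, Trf, Mcoln1 and Slc22a17. Some of these genes were read only as traces. Group means went from 0.03 to 0.51 CPM for Cybrd1, 0.099 to 0.255 for Trf, 0.68 to 1.82 for Slc22a17 and 0.69 to 0.11 for Slc46a1. Steap3 went from 4.18 to 1.68 CPM, Mcoln1 from 36.6 to 78.3 CPM and Snx3 from 176 to 97.9 CPM. Of the storage and export class only Pcbp1, a chaperone that loads ferritin (-1.46, SE 0.07), Pcbp2 (0.59, SE 0.07) and Wdr45 (1.94, SE 0.11) were tested. Slc40a1, ferroportin, the iron exporter, had at most 2 reads in any library.

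Of 15 regulators 11 were higher and 2 lower, with a median of 0.75, where 35.4% of all genes were higher. Fbxl5, the iron-sensing ligase adaptor that marks IRP2 for degradation, rose at pH 6.6 both with IL-2, from 59.7 ± 2.66 to 186 ± 31.3 CPM (log2 fold change 1.63, SE 0.09), and without, from 94.6 ± 7.32 to 232 ± 30.8 CPM (1.29, SE 0.09). The transcripts of IRP2 and of its adaptor thus rose together, and protein was not measured. Herc2, another of the listed regulators, rose with IL-2 (0.52, SE 0.13) and fell without it (-0.75, SE 0.13), an interaction of 1.27 (SE 0.18, adjusted p = 1.92e-07). Zc3h12a (Regnase-1), an endonuclease known to cut Tfrc mRNA, rose with IL-2 from 15.01 ± 1.93 to 37.6 ± 9.31 CPM (1.297, SE 0.17). The RNA-binding proteins Rc3h1, Rc3h2, Zfp36 and Zfp36l1, which promote decay of their target mRNAs, rose by 0.90, 1.35, 1.49 and 2.03 on the log2 scale (SE 0.12, 0.15, 0.24 and 0.14).

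Without IL-2, where Tfrc gave no called change, Zfp36l1 rose by 0.54 (SE 0.13, adjusted p = 6.26e-04), Rc3h1 by 0.33 (SE 0.12, adjusted p = 0.0160) and Rc3h2 by 0.35 (SE 0.14, adjusted p = 0.0317), while Zc3h12a (0.23, adjusted p = 0.233) and Zfp36 (0.40, adjusted p = 0.147) did not pass. The related Zfp36l2 went the other way there and fell from 659 to 485 CPM (-0.45, SE 0.09, adjusted p = 7.94e-05). With IL-2 it rose from 300 to 472 CPM (0.66, SE 0.09). The call of Rc3h1 was lost without replicate 2, 3 or 5 (adjusted p = 0.0595 to 0.123). That of Rc3h2 was lost without replicate 1, 2, 3 or 5 (adjusted p = 0.0522 to 0.247), with the looser filter (0.0947) and with only the groups compared (0.0515). With only the groups compared in the fit Zc3h12a (0.22, adjusted p = 0.028) and Zfp36 (0.39, adjusted p = 0.0039) did pass. Myc, a known activator of Tfrc transcription, fell with IL-2 from 160 ± 14.4 to 54.8 ± 10.4 CPM (-1.55, SE 0.11) and rose without it from 16.2 ± 3.36 to 26.1 ± 4.56 CPM (0.69, SE 0.12). IL-2 at pH 7.4 raised it by 3.31 (SE 0.12). At 0 h Myc was at 234 ± 32.1 CPM. The part of Myc, or of any other regulator, in the Tfrc levels was not tested. Epas1 was the other regulator that fell with IL-2 (-1.22, SE 0.17). Hif1a, which also acts on the Tfrc promoter, rose both with IL-2 (0.75, SE 0.13) and without (1.17, SE 0.13). Nfe2l2, an activator of ferritin genes, rose by 0.55 (SE 0.10) in both, and Bach1, their repressor, rose with IL-2 (1.03, SE 0.10) and was at -0.22 without it (adjusted p = 0.0527), a value that passed the threshold with the stricter filter, with only the groups compared and without replicate 1 (adjusted p = 0.0166 to 0.0357).

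**Figure D4:**
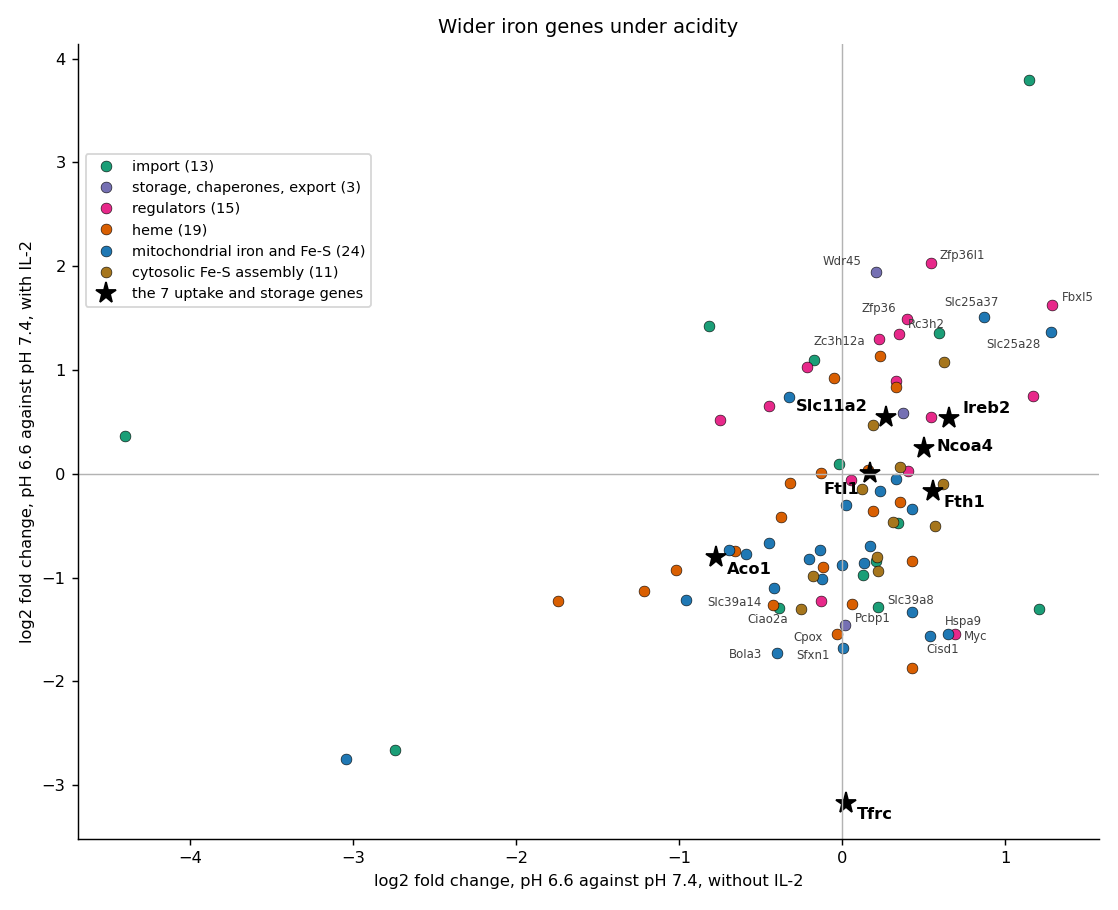
Log2 fold change from pH 7.4 to pH 6.6 without IL-2 (horizontal axis) and with IL-2 (vertical axis) of the 85 tested genes of the wider iron list, coloured by class, and of the 7 uptake and storage genes (stars), with some of the genes of large change labelled. Tfrc lies at 0.02 and -3.17 and most mitochondrial genes lie below 0 with IL-2 on both sides of 0 without it.

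Without IL-2, 33 of the 85 were higher at pH 6.6, 23 lower and 29 not called, with a median of 0.13 against -0.03 over all genes. Over all genes 67% were called, 31.6% higher and 35.4% lower, so that the share called in the list was near the background. Regulators were again mostly higher (8 of 15, 2 lower), mitochondrial genes were split (9 higher, 8 lower) and cytosolic iron-sulfur assembly had 7 higher and 1 lower. The interaction was called in 66 genes, 23 with a higher and 43 with a lower response in the presence of IL-2 (67% of all genes called, 34.3% higher and 32.8% lower), including Hspa9 (-2.20, SE 0.10) and Cisd1 (-2.10, SE 0.16). IL-2 at pH 7.4 moved 45 up and 27 down (median 0.31), against 80.4% of all genes called, 39.3% up and 41.1% down. Of the 24 mitochondrial genes it moved 19 up. At pH 6.6 it moved 15 up and 12 down (23.7% of all genes called), with Tfrc, as above, the only uptake or storage gene called. At pH 7 with IL-2, 5 genes rose, Mcoln1, Fbxl5, Herc2, Ppox and Blvrb, and 19 fell (19% of all genes called). Without IL-2 the edgeR quasi-likelihood test and DESeq2 called 0, with 3 at an unadjusted p under 0.05 in edgeR, and the interaction at pH 7 was called in 2 genes, Hspa9 (-0.40) among them (4.79% of all genes called). The genes named by these small counts, and Steap3, Pcbp2, Hscb, Mms19 and the others that rose or fell against the run of their class, were named after their values were seen.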

How the data were processed

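RNA was extracted from CD8+ T cells, libraries were made with a stranded poly(A) kit, and single reads were sequenced on an Illumina HiSeq instrument. The authors deposited 1 table of raw counts per library, with no normalization, for 48709 genes. The submitters' processing notes name cutadapt 1.8, STAR 2.5.2b, HTSeq 0.6.1 and GRCm38. The annotation release, strand setting and read length are not given in the sources used here. Rows that name no gene, at 2.58% to 11.1% of reads outside genes and 0.871% to 0.997% on several genes besides the multiply aligned reads, were left out of library sizes and tests. Symbols were taken from GENCODE M21, which held 48349 of the gene identifiers; Fdx2 and Ciao3 were matched through RefSeq synonyms.

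Counts of all 35 libraries were fitted in edgeR 4.0.16 (R 4.3.3; TMM, filterByExpr with a minimum count of 10, robust quasi-likelihood) with terms for the 7 groups and for replicate number (a block). Benjamini-Hochberg adjustment ran over 13819 genes (threshold 0.05). SE is the log2 fold change divided by the root of F, and 95% intervals are 1.96 SE. The block follows the design, in which 5 biological replicates were each cultured in all conditions; deviations of same-numbered libraries correlated above 0.1 in 96 of 105 pairs (median 0.258, against -0.066 for different numbers). Counts of libraries of 1 group differed by a chi-square of at least 6.65 per degree of freedom, so none was a repeat deposit of another in its group. Libraries of different groups were not compared in this way. The level per kilobase used the union of a gene's exons.

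Alternatives were RLE factors, DESeq2 1.42.0, a looser and a stricter filter, only the groups compared, no block, and each replicate left out. After the data were seen, a paired sign-flip test of the ratios and Ftl1 between 3 further pairs of groups were added. On simulated counts for pH 6.6 against pH 7.4 with IL-2 (13442 genes in the fit), 36 of 63 genes changed by 0.5 on the log2 scale, 62 of 73 by 1 and 58 of 59 by 2 were called with the right sign, with 10 false calls among 13247 unchanged genes. The simulation changed few genes and held no replicate effect, whereas 76.3% of genes were called in the data. These rates therefore check the fit and do not carry over to the data. Named genes were the 7 members, 12 listed regulators and exporters, up to 20 genes of the wider list past the threshold with the largest change from pH 7.4 to pH 6.6 with IL-2 (at least 1 on the log2 scale, mean log2 CPM at least 3; 29 qualified), and the 3 genes most correlated with each member; some named genes are not reported here. The members and all lists were chosen with earlier results of these data known.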

Additional observations from a re-analysis of the deposited data

Results flagged for a closer look

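The response of Tfrc to pH 6.6 differed between cells with and without IL-2 by -3.1924 on the log2 scale, and its response to pH 7 by -0.8403, both past the threshold in edgeR's test of the interaction. The response to pH 6.6 also differed for Fth1, by -0.7203, and for Slc11a2, by 0.2803. Fth1 in replicate 5 of 0 h was at 835.3 CPM, with the nearest of the other 4 libraries at 548, a gap of 0.853 of the group's range against a critical value of 0.71. Aco1 in replicate 5 of pH 7.4 with IL-2 was at 59.2 CPM, with the nearest library at 55.6, a gap of 0.765 of a range of few CPM. These were 2 of the 49 sets of 5 libraries that were screened, and chance alone sets off about 1 set in 20.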

How the results depend on the processing

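Of 1001 values of the members under an alternative, 964 kept their side of the threshold, 32 lost and 5 gained it, and none that was past it changed sign; 51 of the 964 changed sign while past it in neither. With only the groups compared in the fit, 3 members were called for IL-2 at pH 6.6 in place of 1, adding Slc11a2 (-0.15, adjusted p = 0.0326) and Aco1 (0.16, adjusted p = 0.0466). Ncoa4 at pH 6.6 with IL-2, Aco1 for IL-2 at pH 7.4 and Slc11a2 in the interaction at pH 6.6 were also lost with the looser filter (adjusted p = 0.0923, 0.0801 and 0.0688), and Aco1 with the stricter one (0.103). The wider iron list at pH 7 with IL-2 had 24 calls, and 15 with the looser filter, 39 with only the groups compared, 13 with no replicate block and 9 to 21 with a replicate left out. At pH 7 without IL-2 it had 0, and 2 with only the groups compared; for IL-2 at pH 6.6 it had 27, and 17 to 25 with a replicate left out. For the interaction at pH 7 the members had 1 call, and 0 to 1 with a replicate left out, and the list had 2, and 5 in DESeq2, 0 with the looser filter, 11 with only the groups compared, 0 with no replicate block and 0 to 1 with a replicate left out. Without the replicate block the members lost the calls of Ncoa4 at pH 6.6 with IL-2 (adjusted p = 0.0578) and Fth1 at pH 6.6 without IL-2 (0.0548), both against 0 h, and no other. Over all genes, calls at pH 7 with IL-2 moved from 2623 to 4397 with only the groups compared, 1660 with no block and 1343 and 1323 without replicates 2 and 3. At pH 7 without IL-2 they moved from 232 to 926, 56 and, without replicates 2, 3 and 4, to 42, 91 and 144. For IL-2 at pH 6.6 they moved from 3278 to 5494 with only the groups compared and 2120 without replicate 4. For the interaction at pH 7 they moved from 662 to 1016 in DESeq2, 326 with the looser filter, 1618 with only the groups compared, 177 with no block and 99 to 384 without replicates 2 to 5. The cause was not tested.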
